A study of Homo sapiens with 8 samples.

Results

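Alpha- and beta-tubulins, the building blocks of microtubules, were followed at the RNA level in SUM159, an established human triple-negative breast cancer cell line. The 10 isotype genes TUBA1A, TUBA1B, TUBA1C, TUBA4A, TUBB, TUBB2A, TUBB2B, TUBB3, TUBB4B and TUBB6 were taken by symbol from the 60595 genes in each deposited table, and each matched 1 row. They are 4 alpha- and 6 beta-tubulins, and all 10 were tested by the authors in both comparisons.

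The groups used were 3: cells with shFoxO1 (a short hairpin RNA named for FOXO1, a forkhead transcription factor) in 10 uM olaparib, cells with shCon (the hairpin it was set against) in 10 uM olaparib, and cells with shCon in DMSO, the solvent. Olaparib inhibits the DNA repair enzymes PARP1 and PARP2, and the time was 3 days in all groups. All cells carried a lentiviral hairpin and grew in serum-containing medium with added hydrocortisone and insulin, the hormone whose signalling keeps FOXO proteins out of the nucleus. The labels list 2 libraries for each group and do not say whether they came from separate cultures. A further group, shFoxO1 in DMSO, was not analysed here. The study asked which genes mark sensitivity to PARP inhibitors and which respond to FoxO1, STAT3 and TOP2A.

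An alpha- and a beta-tubulin join into a dimer, dimers bind GTP and add end to end into the microtubule wall, and the isotypes differ most in their acidic C-terminal tails. Enzymes remove or restore a tyrosine on these tails and add or remove glutamate chains. Tubulin folding needs prefoldin, the CCT chaperonin and a set of folding cofactors. Cells also read their own supply of free dimers: when it is high, TTC5 binds nascent tubulin chains at the ribosome and, through SCAPER and the CCR4-NOT subunit CNOT11, directs tubulin mRNAs to decay. In breast and other cancers the isotypes are studied because microtubules are the target of taxanes and vinca alkaloids, and TUBB3 in particular has been followed as a marker of taxane resistance.

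The tables give 1 FPKM value (fragments scaled to transcript length and library size) per gene and group, so no value below has an SD, and the depth of the libraries is unknown. A gene is called higher or lower here where its q in the authors' deposited table is at most 0.05. Such a q measures at most the spread between the libraries that entered the authors' test, and that spread may be technical. In RNA from bulk cultures, fewer cells that express a gene and less of its RNA per cell cannot be told apart. The hairpin's own target was lower in its group: FOXO1 was 17.5 FPKM in shFoxO1 olaparib cells and 89.2 FPKM in shCon olaparib cells, a 5.11-fold difference with q = 0.000244 in the authors' deposited table. Under the drug, FOXO1 was 87.7 FPKM in shCon olaparib cells and 54.6 FPKM in shCon DMSO cells, with q = 0.0966 in the authors' deposited table. Markers of a mesenchymal breast line were present: all 4 of VIM, CD44, AXL and ZEB1 were above 1 FPKM in every group. Of 7 luminal and epithelial markers, PGR and CDH1 were at 0, while 3 (KRT8, KRT18 and ERBB2) were above 1 FPKM in every group. In shCon DMSO cells KRT8 (255 FPKM) and KRT18 (213 FPKM) stood below VIM (2456 FPKM). Both stood above CD44 (129 FPKM), AXL (94.2 FPKM) and ZEB1 (7.89 FPKM) in that group. Of 7 neuronal markers, which bear on the isotypes best known from neurons, SNAP25 was the 1 that reached 1 FPKM. The neuronal markers summed to 2.19 FPKM in shFoxO1 olaparib cells, 4.52 FPKM in shCon olaparib cells and 2.05 FPKM in shCon DMSO cells, and NEFL and DCX were at 0. Summed leukocyte and endothelial markers stayed between 0.0960 and 2.204 FPKM.

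FPKM is a level per transcript length, so isotypes can be compared with each other on it. For this comparison the shFoxO1 olaparib values were divided by the ratio of the shared shCon olaparib group between the tables, about 1.017 for all genes. TUBB, the constitutive class I beta-tubulin (ENSG00000196230, chr6:30720352-30725422), stood at 707 FPKM in shFoxO1 olaparib cells, 914 FPKM in shCon olaparib cells and 862 FPKM in shCon DMSO cells. TUBA1B, the main broadly expressed alpha-tubulin (ENSG00000123416, chr12:49127782-49131395), stood at 634, 759 and 937 FPKM in the same 3 groups. TUBA1C, its neighbour and close relative (ENSG00000167553, chr12:49227926-49274600), stood at 610.3, 594 and 702 FPKM. These 3 genes were the most abundant isotypes in every group, and TUBB ranked 121 and TUBA1B 130 among all genes tested in the shCon olaparib group.

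TUBB4B, a broadly expressed beta-tubulin also used in cilia (ENSG00000188229, chr9:137241287-137243707), was the fourth highest isotype in all 3 groups, at 355 FPKM in shFoxO1 olaparib cells, 509 FPKM in shCon olaparib cells and 402 FPKM in shCon DMSO cells. The genes of middle level changed places between groups. TUBB6, the class V beta-tubulin (ENSG00000176014, chr18:12307669-12329826), was 74.3 FPKM in shFoxO1 olaparib cells, 139 FPKM in shCon olaparib cells and 125 FPKM in shCon DMSO cells. TUBA4A, whose gene does not encode the terminal tyrosine of other alpha-tubulins (ENSG00000127824, chr2:219249710-219254740), was 162, 93.5 and 102 FPKM in those groups. TUBA1A, an alpha-tubulin best known from the developing brain (ENSG00000167552, chr12:49184795-49189080), was 45.7, 135 and 69.8 FPKM. TUBB3, the class III isotype of neurons (ENSG00000258947, chr16:89921925-89936097), was 61.9, 56.4 and 85.6 FPKM. TUBA4A was thus the fifth highest isotype with shFoxO1 and TUBB6 was in the other two groups.

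The class II genes, both associated with neurons, closed the order in every group. TUBB2A (ENSG00000137267, chr6:3153666-3157544) was 16.7 FPKM in shFoxO1 olaparib cells, 12.6 FPKM in shCon olaparib cells and 17.4 FPKM in shCon DMSO cells. Its neighbour TUBB2B (ENSG00000137285, chr6:3224277-3227653) was 1.56, 1.77 and 1.39 FPKM. The widest spread over the 3 groups belonged to TUBA1A, whose highest value was 2.96 times its lowest, and the narrowest to TUBA1C, at 1.18 times. With 1 value per group, neighbours in the order that lie as close as TUBA1B and TUBA1C with shFoxO1 cannot be ranked with an error. Positions are RefSeq annotations of GRCh38.p14, the build named hg38 in the submitters' processing notes.

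**Figure D1:**
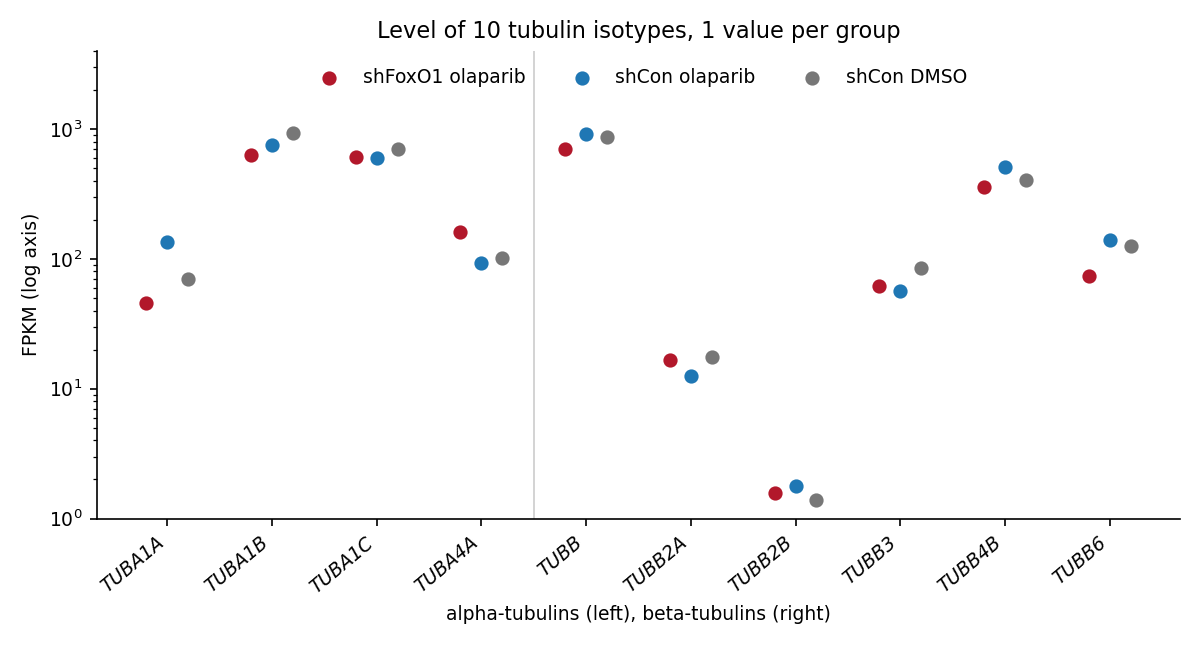
Level of the 10 tubulin isotypes in FPKM on a log axis, 1 point per gene and group (red shFoxO1 olaparib, blue shCon olaparib, grey shCon DMSO), alpha-tubulins on the left of the line and beta-tubulins on the right. TUBB, TUBA1B and TUBA1C lie highest and TUBB2B lowest in all 3 groups, and TUBA1A spreads most, at 45.7, 135 and 69.8 FPKM.

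Several isotypes are near-identical in their coding sequence, so the values of single isotypes depend on how the authors' software divided reads between them, which cannot be checked in these tables. This touches TUBA1A, TUBA1B and TUBA1C among others, and the tables list these under 1 shared region of chromosome 12 with 7 other genes each, 5 of them tested. TUBB3 is listed with TCF25 and MC1R, TUBA4A with STK16, ANKZF1 and GLB1L, and TUBB6 with AFG3L2. TUBB2B is listed with SLC22A23 and PSMG4, and TUBB with AL662797.1. TUBB2A and TUBB4B shared their region with no other tested gene. A region of its own does not show that the reads of a gene were free of such division.

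Promoter sequences of the genes called in the knockdown comparison are shown because windows of those genes differ in a common promoter element. Each line holds the 250 bases before a RefSeq start in GRCh38.p14, on the gene's own strand, with CCAAT or its reverse complement ATTGG in capitals: TUBB at chr6:30720102-30720351 (plus strand), TUBB4B at chr9:137241037-137241286 (plus strand), TUBB6 at chr18:12307991-12308240 (plus strand) and TUBA4A at chr2:219253919-219254168 (minus strand). The TUBA4A window lies inside the gene span given above, which reaches upstream of the 1 start used here, so bases upstream of the whole span were not searched. For TUBB and TUBB6, which have 2 windows each, the window that holds the element was shown, a choice made after the matches were seen. The other window of each holds no CCAAT. The TUBB6 window shown also lies inside its gene span, and its other window, at chr18:12307419-12307668, is the one before that span.
TUBB: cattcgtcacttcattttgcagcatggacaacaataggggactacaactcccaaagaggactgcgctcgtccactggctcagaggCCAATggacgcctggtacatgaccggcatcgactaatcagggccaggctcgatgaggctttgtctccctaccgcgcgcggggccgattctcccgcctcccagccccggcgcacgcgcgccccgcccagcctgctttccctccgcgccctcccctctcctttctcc
TUBB4B: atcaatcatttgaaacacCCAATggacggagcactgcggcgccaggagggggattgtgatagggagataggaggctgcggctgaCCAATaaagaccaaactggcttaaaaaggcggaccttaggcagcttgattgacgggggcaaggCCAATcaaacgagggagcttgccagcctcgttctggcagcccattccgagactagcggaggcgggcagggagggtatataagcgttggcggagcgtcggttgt
TUBB6: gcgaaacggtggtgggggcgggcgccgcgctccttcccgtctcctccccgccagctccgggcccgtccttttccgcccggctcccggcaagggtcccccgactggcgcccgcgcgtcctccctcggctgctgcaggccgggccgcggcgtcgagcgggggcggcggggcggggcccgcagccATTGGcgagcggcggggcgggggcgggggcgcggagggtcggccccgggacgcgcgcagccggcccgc
TUBA4A: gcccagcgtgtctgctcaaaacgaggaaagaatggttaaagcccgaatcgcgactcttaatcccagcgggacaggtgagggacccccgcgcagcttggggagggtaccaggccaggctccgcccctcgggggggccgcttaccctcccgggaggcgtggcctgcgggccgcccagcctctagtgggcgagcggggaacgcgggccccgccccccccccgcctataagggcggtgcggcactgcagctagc
The box bound by the factor NF-Y, CCAAT, occurs 1 time in the windows shown for TUBB and TUBB6, 3 times in that of TUBB4B and not in that of TUBA4A. Over all 10 genes, 9 of 15 windows and 7 of 10 genes held CCAAT on either strand, against 32.0% of 35116 windows of all genes. In the 9 are 2 windows of TUBA1C that overlap and hold the same CCAAT. Among isotypes not called with shFoxO1, TUBA1A, TUBA1C, TUBB2B and TUBB3 held CCAAT in a window, and TUBA1B and TUBB2A did not. The element thus does not separate called from uncalled isotypes. A forkhead motif, GTAAACA on either strand, was in 0 of the 15 tubulin windows and in 2.98% of all windows. The STAT motif TTCNNNGAA was likewise in 0 of 15, against 6.57% of all windows. The box TATAAA was found in 1 tubulin window, that of TUBB2A, and in 10.7% of all windows. No bases of these motifs overlapped. A match describes letters in these windows and not binding, and CCAAT is common at promoters, so nothing follows from these counts about NF-Y, FOXO1 or STAT3 at the tubulin genes.

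The first comparison, olaparib against DMSO in shCon cells, asked how the drug changes these cells. Of the 10 isotypes, 2 were called lower, TUBB3 and TUBB2A, and 0 were called higher. Of the 14841 genes tested in the authors' deposited table, 38.7% carried a call (15.6% higher, 23.1% lower), so 2 of 10 (20%) is no larger a share than that of all genes. The median log2 ratio of the isotypes was -0.02, beside -0.07 over all tested genes, but the isotypes' median was 0.11 after quantile normalization and 0.05 after centring, so it has no direction. No isotype reached a 2-fold difference, which 25.5% of all tested genes did.

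TUBB3, the neuronal class III isotype, fell: it was 56.4 FPKM in shCon olaparib cells and 85.6 FPKM in shCon DMSO cells, a log2 ratio of -0.60 with q = 0.0233 in the authors' deposited table. TUBB2A fell as well, at 12.6 FPKM in shCon olaparib cells and 17.4 FPKM in shCon DMSO cells, with a log2 ratio of -0.47 and q = 0.0214 in the authors' deposited table. These differences are 1.52-fold and 1.39-fold. After quantile normalization the log2 ratio shrank to -0.22 for TUBB3 and -0.34 for TUBB2A. Both calls are lost at a q threshold of 0.01 and where the adjustment runs over every listed gene.

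The more abundant beta-tubulins were not called. TUBB4B was 509 FPKM in shCon olaparib cells and 402 FPKM in shCon DMSO cells, a log2 ratio of 0.34 that missed the threshold at q = 0.0531 in the authors' deposited table. TUBB had 914 FPKM in shCon olaparib cells and 862 FPKM in shCon DMSO cells (log2 ratio 0.08 and, in the authors' deposited table, q = 0.693). TUBB6 had 139 FPKM in shCon olaparib cells and 125 FPKM in shCon DMSO cells (log2 ratio 0.15 and, in the authors' deposited table, q = 0.588). TUBB2B, the isotype of lowest level, had 1.77 FPKM in shCon olaparib cells and 1.39 FPKM in shCon DMSO cells (log2 ratio 0.35 and, in the authors' deposited table, q = 0.760).

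None of the 4 alpha-tubulins was called. The widest gap of the comparison was that of TUBA1A, with 135 FPKM in shCon olaparib cells and 69.8 FPKM in shCon DMSO cells, a log2 ratio of 0.95 with q = 0.220 in the authors' deposited table. Its test statistic was 1.08, so 1 unit of the statistic stood for 0.880 log2 units, against 0.415 at the median over all tested genes in the authors' deposited table. The statistic of TUBA1A was thus small for the size of its ratio, and neither a rise nor its absence is shown. TUBA1B had 759 FPKM in shCon olaparib cells and 937 FPKM in shCon DMSO cells (log2 ratio -0.30 and, in the authors' deposited table, q = 0.227). TUBA1C had 594 FPKM in shCon olaparib cells and 702 FPKM in shCon DMSO cells (log2 ratio -0.24 and, in the authors' deposited table, q = 0.597). TUBA4A had 93.5 FPKM in shCon olaparib cells and 102 FPKM in shCon DMSO cells (log2 ratio -0.12 and, in the authors' deposited table, q = 0.696), and its ratio turned to 0.27 after quantile normalization.

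Genes of high level were shifted in this comparison: the 2206 genes whose mean reached 50 FPKM had a median log2 ratio of -0.39, which was -0.03 after quantile normalization. Of the 10 isotypes, 8 are in that range of level, where 1203 of the 2206 genes carried a call. Proliferation markers moved too: 4 of 5 (MKI67, CENPF, BUB1 and ASPM) were called higher in the authors' deposited table, and the 5 summed to 284 FPKM in shCon olaparib cells and 214 FPKM in shCon DMSO cells. MKI67 had 42.4 FPKM in shCon olaparib cells and 13.2 FPKM in shCon DMSO cells. KRT18, an epithelial keratin, was called lower in the authors' deposited table, at 110.2 FPKM in shCon olaparib cells and 213 FPKM in shCon DMSO cells. The part of these shifts in the tubulin values was not tested.

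With shFoxO1 under olaparib, more isotypes were called, and they did not move one way. TUBB6, TUBB4B and TUBB, which are 3 of the 6 beta-tubulins, were lower than in shCon olaparib cells, and the alpha-tubulin TUBA4A was higher. These are 4 of 10 isotypes (40%), 1 higher and 3 lower, against 42.4% of 14660 tested genes in the authors' deposited table, 22.6% higher and 19.8% lower. The share of isotypes called is therefore near that of all genes, which were not matched for level. The median log2 ratio was -0.22 over the isotypes, -0.27 over the beta-tubulins and -0.11 over the alpha-tubulins, beside 0.01 over all tested genes. Of the 10 isotypes, 1 (TUBA1A, not called) reached a 2-fold difference, beside 31.1% of all tested genes.

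TUBB6 changed most among the called isotypes, with 75.6 FPKM in shFoxO1 olaparib cells and 141 FPKM in shCon olaparib cells, a log2 ratio of -0.90 and q = 0.00106 in the authors' deposited table. TUBB4B, the broadly expressed isotype of cilia, had 362 FPKM in shFoxO1 olaparib cells and 518 FPKM in shCon olaparib cells, a log2 ratio of -0.52 and q = 0.00213 in the authors' deposited table. TUBB had 719 FPKM in shFoxO1 olaparib cells and 929.65 FPKM in shCon olaparib cells, a log2 ratio of -0.37 and q = 0.0441 in the authors' deposited table. In fold terms they were 1.86-fold, 1.43-fold and 1.29-fold lower with shFoxO1. TUBB lies close to the threshold, and its call is lost at a q threshold of 0.01 and where the adjustment runs over every listed gene.

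TUBA4A was the 1 isotype called higher: it had 165 FPKM in shFoxO1 olaparib cells and 95.1 FPKM in shCon olaparib cells, a 1.73-fold difference with a log2 ratio of 0.79 and q = 0.00248 in the authors' deposited table. The other 3 alpha-tubulins were not called. TUBA1A had 46.5 FPKM in shFoxO1 olaparib cells and 137 FPKM in shCon olaparib cells, a 2.96-fold gap with a log2 ratio of -1.56 and q = 0.0668 in the authors' deposited table. As under the drug, its statistic was small for the gap, at -1.58, or 0.988 log2 units per unit of statistic, against 0.433 at the median of all tested genes in the authors' deposited table. TUBA1B had 645 FPKM in shFoxO1 olaparib cells and 772 FPKM in shCon olaparib cells (log2 ratio -0.26 and, in the authors' deposited table, q = 0.351). TUBA1C had 621 FPKM in shFoxO1 olaparib cells and 605 FPKM in shCon olaparib cells (log2 ratio 0.04 and, in the authors' deposited table, q = 0.937), which was the smallest gap of any isotype in this comparison.

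The neuron-associated beta-tubulins were not called with shFoxO1. TUBB2A had 17.0 FPKM in shFoxO1 olaparib cells and 12.8 FPKM in shCon olaparib cells, a log2 ratio of 0.41 that missed the threshold at q = 0.0510 in the authors' deposited table. TUBB3 had 62.9 FPKM in shFoxO1 olaparib cells and 57.4 FPKM in shCon olaparib cells (log2 ratio 0.13 and, in the authors' deposited table, q = 0.670). TUBB2B had 1.59 FPKM in shFoxO1 olaparib cells and 1.80 FPKM in shCon olaparib cells (log2 ratio -0.18 and, in the authors' deposited table, q = 0.864). After quantile normalization, the ratio turned for TUBB3 (-0.10), TUBB2B (0.15) and TUBA1C (-0.18), and for none of the called isotypes.

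The 2166 genes whose mean reached 50 FPKM had a median log2 ratio of 0.24 with shFoxO1, which was 0.00 after quantile normalization. Of these 2166 genes, 1217 carried a call. Proliferation markers were lower: 4 of 5 (MKI67, CENPF, BUB1 and ASPM) were called lower in the authors' deposited table, and the 5 summed to 172 FPKM in shFoxO1 olaparib cells on the first table's scale and 284 FPKM in shCon olaparib cells. MKI67 had 7.89 FPKM in shFoxO1 olaparib cells and 43.1 FPKM in shCon olaparib cells. Of the 4 mesenchymal markers, VIM and AXL were called lower in the authors' deposited table, and CD44 and ZEB1 were not called. VIM, an intermediate filament, had 1656 FPKM in shFoxO1 olaparib cells and 2487 FPKM in shCon olaparib cells, and the receptor AXL had 34.5 and 87.4 FPKM in those groups. Of the luminal and epithelial markers, KRT8 (93.7 FPKM in shFoxO1 olaparib cells, 331 FPKM in shCon olaparib cells) and ERBB2 (19.9 FPKM in shFoxO1 olaparib cells, 33.8 FPKM in shCon olaparib cells) were called lower in the authors' deposited table. PECAM1 was the 1 endothelial marker above 1 FPKM, at 1.80 FPKM in shFoxO1 olaparib cells and 0.0937 FPKM in shCon olaparib cells, while CDH5 was at 0 in both. The part of these shifts in the tubulin values was not tested. The 2 comparisons share the shCon olaparib group, so any error of that group enters both with opposite sign, and no relation between them was tested.

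**Figure D2:**
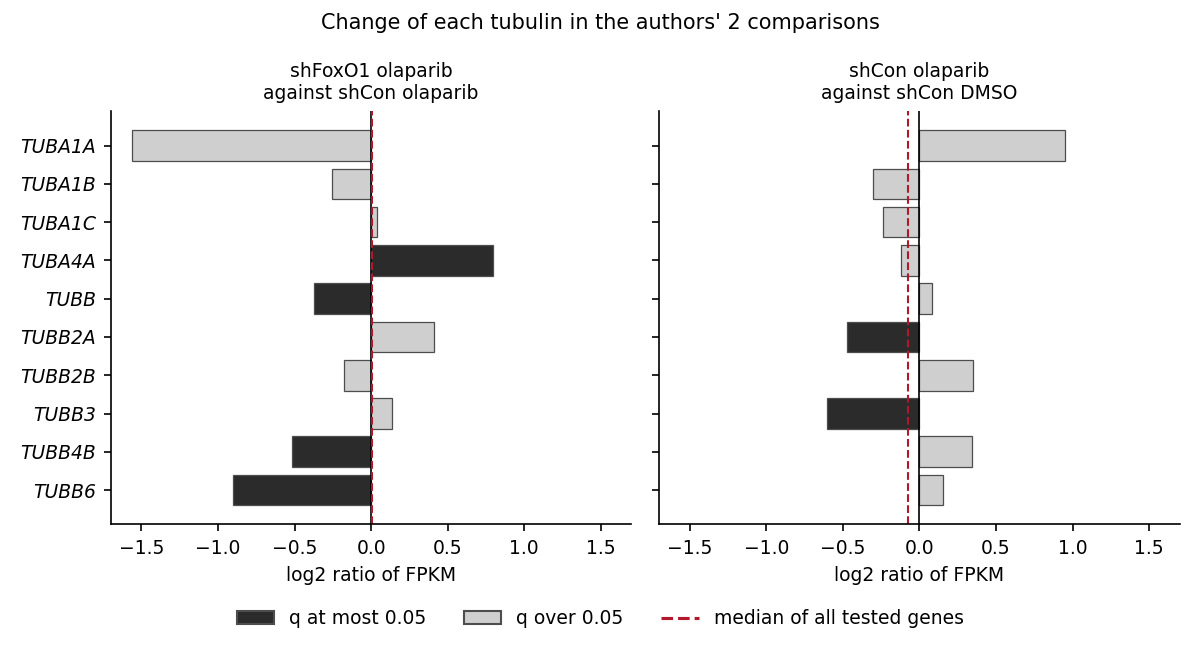
Log2 ratio of FPKM of each isotype in the knockdown comparison (left panel) and the drug comparison (right panel), dark bars for q at most 0.05 in the authors' deposited tables and pale bars for a larger q. With shFoxO1, TUBB6 (-0.90), TUBB4B (-0.52) and TUBB (-0.37) are dark and below 0 and TUBA4A (0.79) is dark and above 0, and with olaparib TUBB3 (-0.60) and TUBB2A (-0.47) are dark. The longest bar of each panel, TUBA1A, is pale.

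Summed over isotypes, alpha- and beta-tubulin RNA were close to each other in every group. The alpha-tubulins summed to 1478 FPKM in shFoxO1 olaparib cells and 1609 FPKM in shCon olaparib cells of the second table, and the beta-tubulins to 1238 and 1660.2 FPKM in those groups. In the first table the alpha-tubulins summed to 1581 FPKM in shCon olaparib cells and 1810.4 FPKM in shCon DMSO cells, and the beta-tubulins to 1632 and 1493 FPKM. The alpha-to-beta ratio was therefore 1.19 in shFoxO1 olaparib cells, 0.969 in shCon olaparib cells and 1.21 in shCon DMSO cells, and the lower ratio of the shCon olaparib group lay on either side of 1 with the scaling, at 0.994 after quantile normalization with the shFoxO1 group and 1.01 with the DMSO group. Under those normalizations the ratio was 1.21 in shFoxO1 olaparib cells and 1.25 in shCon DMSO cells. All 10 isotypes made up 0.385% of all FPKM in shFoxO1 olaparib cells, 0.487% in shCon olaparib cells and 0.446% in shCon DMSO cells. These sums have no error and no test.

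Isotype shares show which genes supply each class. A share is not altered by a single scaling factor for a group, but a normalization that acts by level, such as quantile normalization, can move it, and shares were not computed under that one. Within alpha-tubulin, TUBA1B held 43.7% in shFoxO1 olaparib cells, 48.0% in shCon olaparib cells and 51.8% in shCon DMSO cells, and TUBA1C held 42.0%, 37.6% and 38.8%. Together these top 2 alpha genes supplied 85.7%, 85.5% and 90.5% of the class. In the remainder, TUBA4A held 11.2% in shFoxO1 olaparib cells, 5.91% in shCon olaparib cells and 5.62% in shCon DMSO cells, whereas TUBA1A held 3.15%, 8.54% and 3.86%. TUBA4A was thus the larger of these minor genes with shFoxO1 and in DMSO, and TUBA1A in shCon olaparib cells. However, TUBA1A was called in neither comparison, and its share depends on how reads were divided between it, TUBA1B and TUBA1C.

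Within beta-tubulin, TUBB held 58.1% in shFoxO1 olaparib cells, 56.0% in shCon olaparib cells and 57.7% in shCon DMSO cells. TUBB4B held 29.2%, 31.2% and 26.9% in the same groups, so that the top 2 beta genes supplied 87.3%, 87.2% and 84.6%. TUBB6 held 6.11% in shFoxO1 olaparib cells, against 8.50% in shCon olaparib cells and 8.37% in shCon DMSO cells. TUBB3 held 5.09%, 3.46% and 5.73%, and was lowest in shCon olaparib cells. TUBB2A held 1.37%, 0.770% and 1.17%, and TUBB2B between 0.0930% and 0.128%. The make-up of beta-tubulin therefore varied by a few percentage points between groups, with TUBB and TUBB4B first in each.

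**Figure D3:**
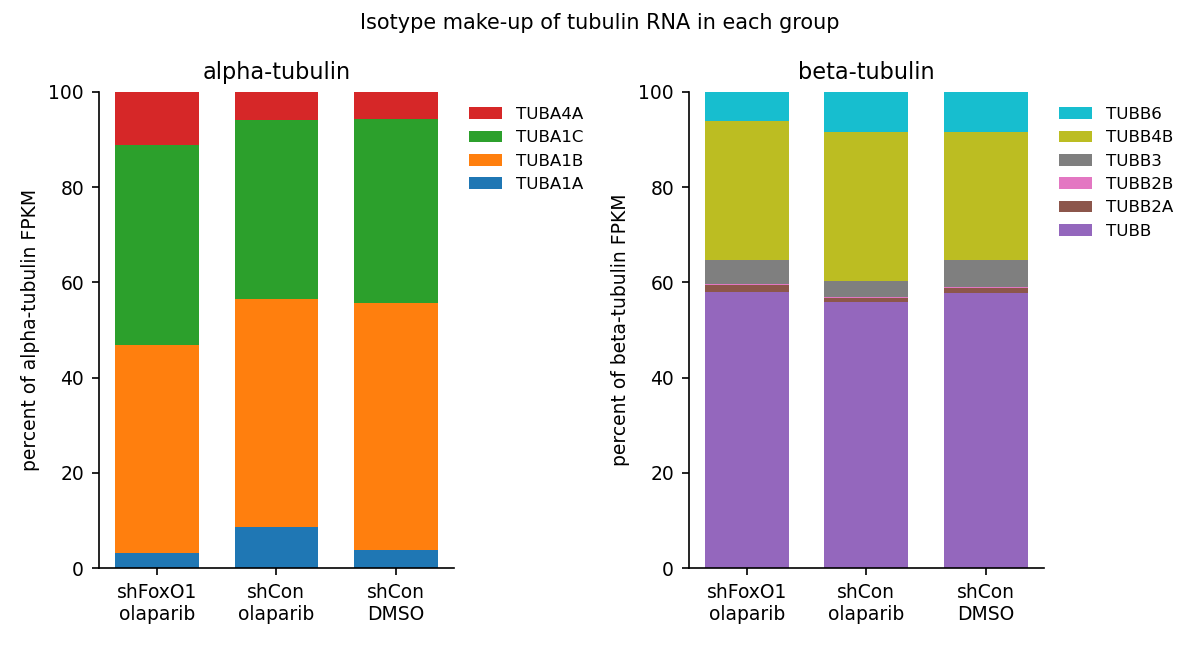
Share of each isotype in the summed FPKM of its class, in percent, for alpha-tubulin (left panel) and beta-tubulin (right panel), 1 bar per group. TUBA1B and TUBA1C fill most of each alpha bar and TUBB and TUBB4B most of each beta bar, while TUBA4A is widest in shFoxO1 olaparib cells (11.2%) and TUBA1A in shCon olaparib cells (8.54%). TUBA1A was called in neither comparison.

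The shFoxO1 olaparib and shCon DMSO groups, which differ in hairpin and drug, were set side by side without a test. On the first table's scale, the log2 ratio of these groups was lowest for TUBB6 (-0.75), TUBA1A (-0.61) and TUBA1B (-0.56), and highest for TUBA4A (0.67). TUBB3 (-0.47), TUBB (-0.29), TUBA1C (-0.20), TUBB4B (-0.18) and TUBB2A (-0.06) lay below 0, and TUBB2B (0.17) above it. TUBA4A and TUBB2B were therefore the 2 isotypes with a larger value in shFoxO1 olaparib cells than in shCon DMSO cells.

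Genes that make, fold, modify and bind tubulin were read from 13 lists of 112 genes, 89 of them tested in both comparisons. With shFoxO1, 25 were called higher and 22 lower, 52.8% of the tested list genes against 42.4% of all tested genes in the authors' deposited table. With olaparib, 21 were called higher and 29 lower, 56.2% against 38.7% in the authors' deposited table. All tested genes were not matched to the lists for level. Of genes whose mean reached 50 FPKM, 1217 of 2166 carried a call with shFoxO1 and 1203 of 2206 with olaparib. The lists follow by role, the knockdown comparison first, and none was tested against other genes.

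The remaining tubulins of the superfamily had 4 tested genes of 10. With shFoxO1, TUBA3E, an alpha-tubulin known from testis, was the 1 called, higher, at 5.17 FPKM in shFoxO1 olaparib cells and 0.836 FPKM in shCon olaparib cells (q = 0.000244 in the authors' deposited table). Its close copy TUBA3D had 3.50 FPKM in shFoxO1 olaparib cells and 0.662 FPKM in shCon olaparib cells, with q = 0.212 in the authors' deposited table, and reads of these copies may be split between them. With olaparib, TUBE1, the epsilon-tubulin of centrioles, was lower at 11.7 FPKM in shCon olaparib cells and 23.2 FPKM in shCon DMSO cells. TUBD1, the delta-tubulin, was higher at 3.53 FPKM in shCon olaparib cells and 1.90 FPKM in shCon DMSO cells.

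The gamma-tubulin ring complex, which nucleates microtubules, had 3 of 12 genes higher and 3 lower with shFoxO1, and 2 higher and 3 lower with olaparib. NEDD1, which carries the complex to centrosomes and spindles, had 66.8 FPKM in shFoxO1 olaparib cells and 16.1 FPKM in shCon olaparib cells, a 4.15-fold rise. MZT2A, a small subunit, fell to 71.9 FPKM in shFoxO1 olaparib cells, against 155 FPKM in shCon olaparib cells. CDK5RAP2, an activator of the complex, was called in both: it had 12.4 FPKM in shFoxO1 olaparib cells against 25.1 FPKM in shCon olaparib cells, and 24.7 FPKM in shCon olaparib cells against 15.9 FPKM in shCon DMSO cells. TUBGCP2, a core subunit, was lower with olaparib, at 22.9 FPKM in shCon olaparib cells and 40.04 FPKM in shCon DMSO cells.

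Folding genes that were called went 1 way within each comparison. Of the 8 CCT chaperonin subunits, 5 were higher and 0 lower with shFoxO1 (median log2 ratio 0.68), and 0 were higher and 6 lower with olaparib (median -0.63). Quantile normalization moved these medians to 0.37 and -0.20 and turned no called subunit. CCT6A had 96.8 FPKM in shFoxO1 olaparib cells against 51.2 FPKM in shCon olaparib cells, and 50.3 FPKM in shCon olaparib cells against 117 FPKM in shCon DMSO cells. CCT7 had 299 FPKM in shFoxO1 olaparib cells against 164 FPKM in shCon olaparib cells, and 161 FPKM in shCon olaparib cells against 337 FPKM in shCon DMSO cells. Both subunits were thus called in both comparisons in the authors' deposited tables, which share the shCon olaparib group.

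Prefoldin, which hands nascent tubulin to CCT, had 2 of 6 subunits higher and 0 lower with shFoxO1, and 0 higher and 3 lower with olaparib. Its median log2 ratios were 0.44 with shFoxO1 and -0.55 with olaparib, and 0.23 and -0.26 after quantile normalization. VBP1 had 46.5 FPKM in shFoxO1 olaparib cells and 17.2 FPKM in shCon olaparib cells. PFDN2 had 63.8 FPKM in shCon olaparib cells and 205 FPKM in shCon DMSO cells, the widest prefoldin gap at 3.21-fold, and PFDN6 had 55.5 FPKM in shCon olaparib cells and 156 FPKM in shCon DMSO cells. The folding cofactors had 2 of 6 higher and 0 lower with shFoxO1, and 0 higher and 3 lower with olaparib. Their median log2 ratios were 0.27 with shFoxO1 and -0.43 with olaparib, and 0.01 and -0.11 after quantile normalization. TBCC, which releases the finished dimer, had 49.1 FPKM in shFoxO1 olaparib cells and 17.5 FPKM in shCon olaparib cells. ARL2, the GTPase that works with the cofactors, had 92.6 FPKM in shCon olaparib cells and 228 FPKM in shCon DMSO cells. The folding cofactor TBCE was left out, because its symbol stood in more than 1 row.

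All 3 autoregulation genes were called in both comparisons, though not in the same direction as each other. TTC5, which recognises nascent tubulin, had 8.996 FPKM in shFoxO1 olaparib cells against 6.17 FPKM in shCon olaparib cells, and 6.06 FPKM in shCon olaparib cells against 9.82 FPKM in shCon DMSO cells. CNOT11 had 50.4 FPKM in shFoxO1 olaparib cells against 18.4 FPKM in shCon olaparib cells, and 18.1 FPKM in shCon olaparib cells against 38.0 FPKM in shCon DMSO cells. SCAPER, the adaptor between them, stood the other way round, at 2.26 FPKM in shFoxO1 olaparib cells against 5.31 FPKM in shCon olaparib cells, and 5.21 FPKM in shCon olaparib cells against 1.58 FPKM in shCon DMSO cells.

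Tail-modifying enzymes included the widest ratio among the list genes with olaparib, that of AGTPBP1. AGTPBP1, a carboxypeptidase that shortens glutamate chains on tubulin, rose to 13.5 FPKM in shCon olaparib cells, against 1.18 FPKM in shCon DMSO cells (log2 ratio 3.52), and had 1.67 FPKM in shFoxO1 olaparib cells against 13.7 FPKM in shCon olaparib cells (log2 ratio -3.03). VASH1, a peptidase that removes the tail tyrosine, rose to 5.90 FPKM in shCon olaparib cells, against 1.08 FPKM in shCon DMSO cells, and fell to 1.67 FPKM in shFoxO1 olaparib cells, against 6.001 FPKM in shCon olaparib cells. TTL, which puts the tyrosine back, was called in neither comparison, and with shFoxO1 had 25.6 FPKM in shFoxO1 olaparib cells and 26.8 FPKM in shCon olaparib cells. SVBP, the partner of the vasohibins, was not called, with 5.49 FPKM in shFoxO1 olaparib cells and 10.9 FPKM in shCon olaparib cells. TPGS1, a subunit of a polyglutamylase, had 58.8 FPKM in shFoxO1 olaparib cells against 24.4 FPKM in shCon olaparib cells, and 24.1 FPKM in shCon olaparib cells against 53.5 FPKM in shCon DMSO cells. Of the 13 tested glutamylation, glycylation and deglutamylation genes, 3 were higher and 5 lower with shFoxO1, and 5 were higher and 3 lower with olaparib. Of the 3 acetylation genes, 0 were higher and 1 (HDAC6) lower with shFoxO1, and 1 (HDAC6) was higher and 0 lower with olaparib. HDAC6, a tubulin deacetylase, had 9.68 FPKM in shFoxO1 olaparib cells against 21.5 FPKM in shCon olaparib cells, and 21.1 FPKM in shCon olaparib cells against 13.3 FPKM in shCon DMSO cells. SIRT2, the other tubulin deacetylase, was not called, with 28.7 FPKM in shFoxO1 olaparib cells against 21.4 FPKM in shCon olaparib cells, and 21.0 FPKM in shCon olaparib cells against 23.9 FPKM in shCon DMSO cells.

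Proteins that hold dimers or bind the polymer were called in both directions. STMN1, which sequesters free dimers, fell to 131 FPKM in shFoxO1 olaparib cells, against 488 FPKM in shCon olaparib cells (log2 ratio -1.90), and rose to 479 FPKM in shCon olaparib cells, against 256 FPKM in shCon DMSO cells (log2 ratio 0.90). STMN3, a stathmin of neurons, had 9.76 FPKM in shFoxO1 olaparib cells against 2.52 FPKM in shCon olaparib cells, and 2.48 FPKM in shCon olaparib cells against 13.5 FPKM in shCon DMSO cells. In shCon olaparib cells STMN1 thus stood near the level of TUBB4B, an abundant isotype at 509 FPKM. Of 7 severing enzymes, 1 was called higher with shFoxO1 (FIGN) and 1 lower (the katanin subunit KATNA1).

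Microtubule-associated proteins had 2 of 12 higher and 5 lower with shFoxO1, and 5 higher and 3 lower with olaparib. MAP9, a spindle-associated protein, had 2.57 FPKM in shFoxO1 olaparib cells against 13.4 FPKM in shCon olaparib cells, and 13.2 FPKM in shCon olaparib cells against 1.45 FPKM in shCon DMSO cells. MAP7D1, a relative of the kinesin-1 partner MAP7, had 54.5 FPKM in shCon olaparib cells against 103 FPKM in shCon DMSO cells and was called lower, and with shFoxO1 it was not called. MAP1B, a stabilising protein of growing axons, had 6.34 FPKM in shFoxO1 olaparib cells against 34.5 FPKM in shCon olaparib cells, and 33.9 FPKM in shCon olaparib cells against 19.3 FPKM in shCon DMSO cells. Plus-end proteins had 3 of 10 higher and 4 lower with shFoxO1, and 4 higher and 3 lower with olaparib. All 3 EB proteins of that list (MAPRE1, MAPRE2 and MAPRE3), which track growing ends, were higher with shFoxO1 and lower with olaparib, whereas CLIP1, CLIP2 and CLIP3, which share a CAP-Gly domain, were lower with shFoxO1 and higher with olaparib. MAPRE1 had 101 FPKM in shFoxO1 olaparib cells against 33.96 FPKM in shCon olaparib cells, and 33.4 FPKM in shCon olaparib cells against 56.7 FPKM in shCon DMSO cells. CLIP1 had 7.79 FPKM in shFoxO1 olaparib cells against 26.4 FPKM in shCon olaparib cells, and 26.0 FPKM in shCon olaparib cells against 15.5 FPKM in shCon DMSO cells. All calls on these genes are those of the authors' deposited tables.

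**Figure D4:**
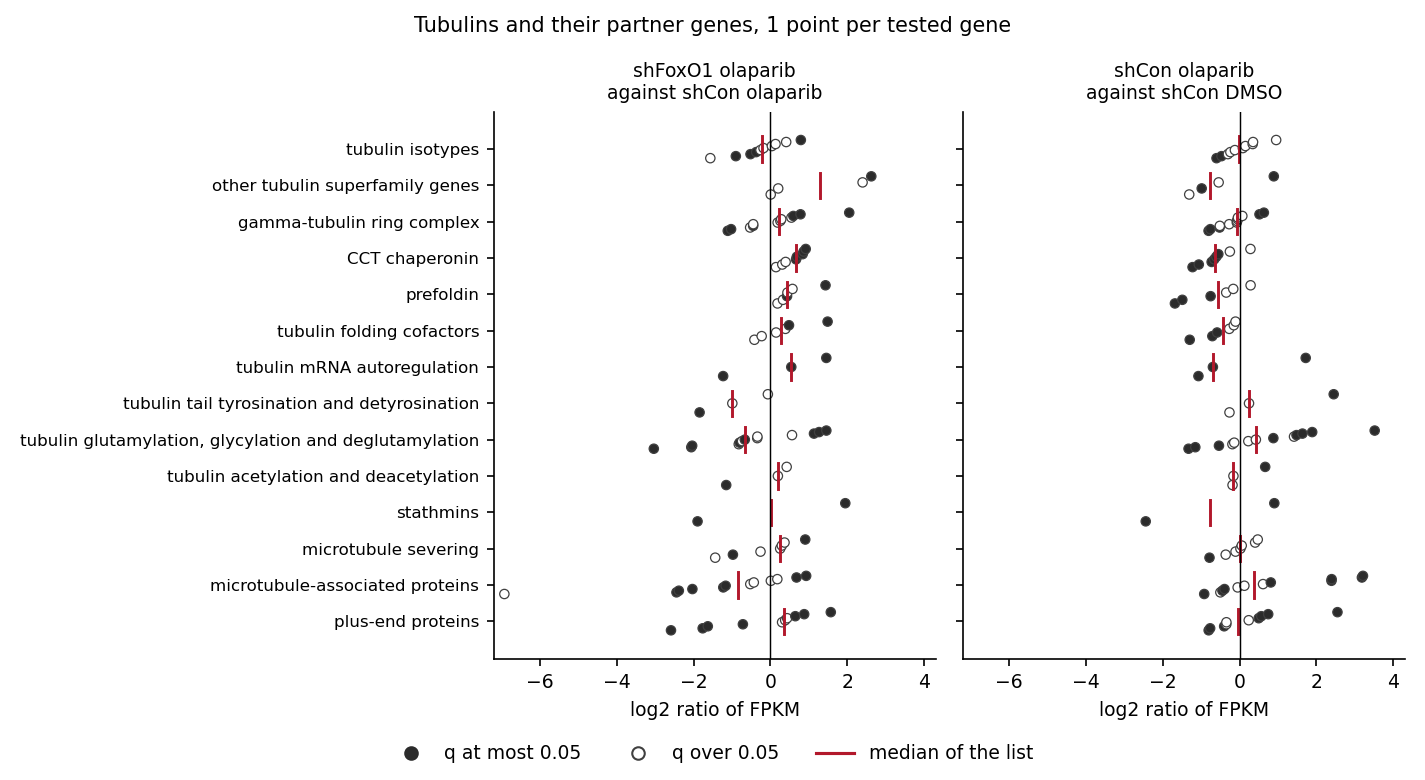
Log2 ratio of FPKM of the 10 isotypes and of the tested genes of 13 partner lists, 1 point per gene, filled where q is at most 0.05 in the authors' deposited tables, with a red tick at each list's median, for the knockdown comparison (left) and the drug comparison (right). The isotypes lie within 1.56 log2 units of 0, while the chaperonin genes have medians of 0.68 and -0.63 and AGTPBP1 reaches -3.03 and 3.52. In the left panel the leftmost point is DCLK1 at -6.93, which was not called. DCLK1 had 0.0108 FPKM in shFoxO1 olaparib cells and 1.31 FPKM in shCon olaparib cells.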

How the data were processed

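Per the labels' protocols, total RNA of SUM159 cells was depleted of ribosomal RNA and sequenced from both ends in strand-specific libraries. The protocol names 2 sequencing providers and does not assign libraries to them, so a provider effect cannot be told apart from the groups. CASAVA 1.4, HISAT2 2.1.0, Cufflinks 2.2.1 and the build hg38 come from the submitters' processing notes, which give no roles.

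The authors deposited 2 tables, 1 per comparison. Per the file headers, each row gives an FPKM value for each of the 2 groups and the p-value and q-value of a test, beside its statistic, which is treated as a score. Whether a group's FPKM draws on both of its libraries is not given in the sources used here, and limma, planned for values per library, could not be fitted. The deposited column of log2 ratios holds cells that are not numbers and was not used; ratios were computed from FPKM with no pseudocount. The deposited q-values match the p-values adjusted by the Benjamini-Hochberg method over tested genes within 5.22e-07, and a q of at most 0.05 is a call.

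The second table's FPKM were divided by 1.017, the median ratio of the shared group over 13688 genes of at least 1 FPKM, for levels across tables only. Alternatives were a pseudocount, quantile normalization, centring, filters and other thresholds. The isotypes and the partner lists were chosen with earlier results of these data known. Genes named were the 10 isotypes, FOXO1, from each list the 2 with the smallest p in each comparison (ties by the larger statistic), and the 3 genes nearest to TUBA1B and to TUBB; other list genes and the markers named were picked after their values were seen. Promoters came from RefSeq GRCh38.p14, matched by symbol for all 10 isotypes. Protein tails were not analysed here. Python 3.11.15, pandas 2.3.3, numpy 2.4.6 and matplotlib 3.10.9 were used, and the ratio and call code was tested on simulated data.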

Additional observations from a re-analysis of the deposited data

How the results depend on the processing

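No paired analysis was possible because the tables hold 1 value per group, and for the same reason no library could be left out and no replicate block fitted. Among olaparib calls (2 isotypes), 0 passed at q = 0.01 and 0 after adjustment over every listed gene, as a stricter threshold and more genes in the adjustment bring, and 1 (TUBB3) also differed by at least 1.5-fold. Of 4 calls with shFoxO1, 2 (TUBA4A and TUBB6) differed by at least 1.5-fold. Over all tested genes, 32.2% with olaparib and 36.7% with shFoxO1 were both called and at least 1.5-fold different. The isotypes' median log2 ratio with olaparib, -0.02, became 0.11 after quantile normalization and 0.052 after centring, and was -0.12 without genes under a mean of 10 FPKM. Quantile normalization turned single ratios that were not called: TUBA4A with olaparib (0.27), and TUBA1C (-0.18), TUBB2B (0.15) and TUBB3 (-0.10) with shFoxO1; the cause was not tested. Over all results, 129 alternative values were labelled the same, 6 reversed and 5 moved. That label was also given to the alpha-to-beta ratio of shCon olaparib cells, which went from 0.969 to 1.01 after quantile normalization. It was given as well where the calls with shFoxO1 went from 4 to 3. Of the 129, 24 are sums or alpha-to-beta ratios and 40 are shares. The share alternatives only added symbols that hold little of each class, so they could hardly move. Depth is unknown, so the precision of low genes such as TUBB2B cannot be stated.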

Other observations

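The tables list 47 further symbols that begin with TUBA or TUBB, pseudogenes included, and 32 of them were at 0 FPKM in all 3 groups. Only TUBA3E, TUBA3D and the pseudogene TUBBP1 reached 1 FPKM in any group. TUBBP1 had 4.20 FPKM in shFoxO1 olaparib cells, 4.96 FPKM in shCon olaparib cells and 4.24 FPKM in shCon DMSO cells. The 10 isotypes held 99.3% to 99.8% of the FPKM listed for alpha-tubulin and 99.6% to 99.7% of that for beta-tubulin.

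Among 7521 genes tested in both comparisons with a mean of at least 10 FPKM, those whose 2 log2 ratios lay nearest to TUBA1B, over 3 groups, were EIF1B (distance 0.0025 log2 units), GPR108 (0.0037) and NCKIPSD (0.019). Nearest to TUBB were TRAPPC6B, RACK1 and ETFB, and 74 genes lay within 0.1 of TUBA1B and 91 within 0.1 of TUBB. With so few groups, such nearness is a description of 3 values per gene.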
